A study of Mus musculus with 2 samples.

Results

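Interferon-stimulated genes are the genes that cells switch on when interferon reaches its receptors, and they are described here with the receptors and transcription factors that control them. Members were chosen by symbol: names such as Ifi, Ifit, Ifih, Ifnar, Ifngr, Irf, Oas, Gbp, Irgm, Stat2, Mx1 and Mx2, and 15 single genes such as Isg15, Usp18, Rtp4 and Zbp1. The rule found 71 of the 17044 genes in the deposited table. The rule itself refers to names only.

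The study prepared single-cell RNA libraries from the colon epithelium of wild-type C57BL/6 mice that had been irradiated 2 weeks earlier. All cells belonged to this 1 group, spread over 2 libraries, and no unirradiated or untransplanted sample was analysed here. The series title concerns transplanted colonoids, which are organoids grown from colon crypts, and no label separates grafted from host cells. What the authors deposited is a mean level of each gene in each of 12 cell clusters (0 to 11), scaled so that a cell holds 10000 UMIs (unique molecular identifiers, 1 for each captured RNA molecule).

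The table gives no library, so both were taken as pooled, and no value has a replicate. Differences between clusters are therefore described by their size, and the 95% intervals printed in brackets reflect counting error alone. The arithmetic of the averages gave 3082 cells, from 19 to 482 per cluster, and the UMI totals of 2315 of them, with a median of 12193 UMIs. Cluster 5 was shallow, at a median of 1436 UMIs, as was cluster 6, at 2502. The clusters were drawn by the authors from the same expression values, so a gene that distinguishes a cluster describes it and is no independent evidence.

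Type I and type III interferons are released when cells sense foreign or misplaced nucleic acid, and type II interferon comes mainly from lymphocytes. Their receptors signal through JAK kinases to STAT proteins, which join IRF9 and bind the interferon-stimulated response element, or, for type II interferon, through paired STAT proteins that bind a shorter STAT site. In the gut epithelium, type III interferon is known as a main antiviral signal, and IRF7 amplifies the response after it has started.

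Cluster 4, an epithelial cluster of 324 cells, had the most members past a 2-fold threshold. In it 31 of the 71 members exceeded the mean of the remaining 11 clusters 2-fold or more, against 3.26% of all 17044 genes, and 9 were at least 2-fold below, against 7.29%. Folds are ratios of the averages after adding 0.1 per 10000 to both sides, which understates the fold of low genes. The 31 comprised Irf7, 5 of 6 IFIT genes, both genes of the ISG15 system and members of 5 further roles. Among the 46 members with a mean of at least 0.1 per 10000, 22 were at least 2-fold higher in cluster 4, against 6.09% of the 8068 genes at that mean.

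The order of the leading clusters by number of members depends on the threshold. At 4-fold, clusters 4, 5 and 10 had 10, 11 and 10 members. With 1 per 10000 added in place of 0.1 they had 6, 9 and 9 past 2-fold, and 0.78% of all genes passed in cluster 4. The other shares of all genes at these settings are not given here, so the excess over all genes cannot be compared between these clusters. The summed level of the 71 members was lower in cluster 4, at 66.2 per 10000, than in clusters 5 and 10, at 136 and 108.

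Clusters 5 and 10 were the only others with more than 5 members past 2-fold. Cluster 5 had 21 of 71, against 5.13% of all genes, and cluster 10 had 19 of 71, against 5.77%. Clusters 0, 2, 3, 7 and 9 had 0 such members, where 1.99%, 0.44%, 0.669%, 3.34% and 1.21% of all genes passed. Cluster 1 had 1 (0.287% of all genes), cluster 8 had 2 (3.7%), cluster 6 had 3 (3.23%) and the enteroendocrine-like cluster 11 had 5 (11.1%). Cluster 5 was neutrophil-like: Retnlg, S100a9, S100a8 and G0s2 were among its leading genes. Cluster 10, with 31 cells, was left without a type name, since macrophage, dendritic and mast cell markers were all high in it. T and NK cell markers were highest there too, at a sum of 4.12 against 0.0682 in cluster 5.

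The median member stood apart in cluster 4 as well. Its log2 fold over the other clusters was 0.84 there, against -0.10 for the median of all genes. It was 0.33 in cluster 5 and 0.12 in cluster 10, and between -0.60 and -0.09 in the other 9 clusters. Of the 71 members, 28 had their highest level in cluster 4, where 7.01% of all genes did. Another 20 were highest in cluster 5, against 7.76% of all genes, and 14 in cluster 10, against 8.84%. Among the 46 members with a mean of at least 0.1 per 10000, clusters 4 and 5 tied at 15 each. Of all genes at that mean, 8.61% were highest in cluster 4 and 8.04% in cluster 5.

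**Figure D1:**
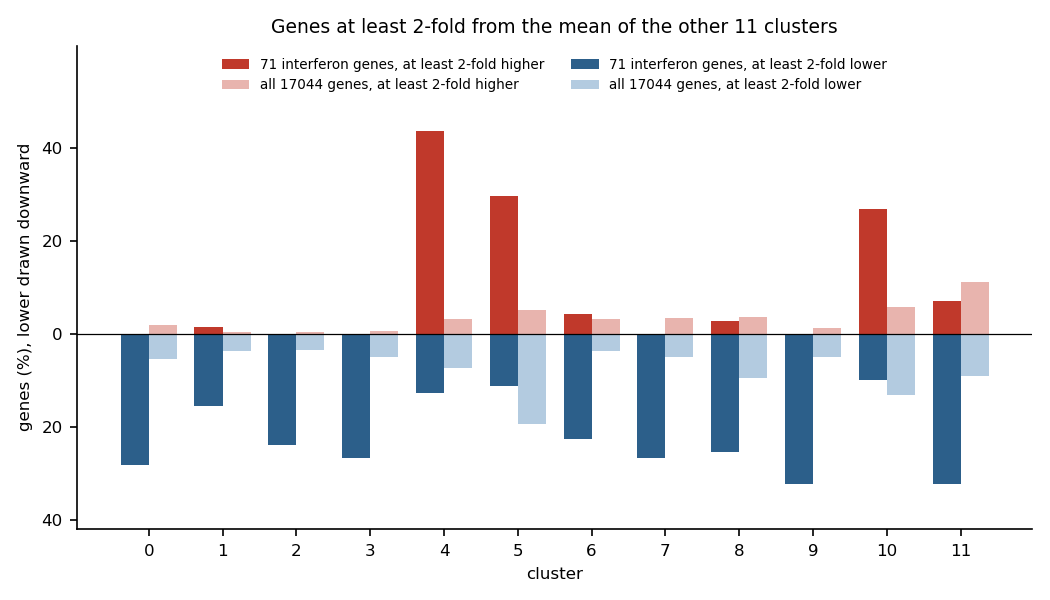
Percent of genes that lay 2-fold or more above (upward) or below (downward) the mean of the remaining 11, in each of the 12 clusters, for the 71 interferon genes (dark bars) and all 17044 genes (pale bars). The upward dark bars stand out in clusters 4, 5 and 10, with 31, 21 and 19 of the 71 genes.

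Markers of neutrophils, macrophages, dendritic cells and T cells were close to 0 in cluster 4, whereas some markers of plasmacytoid dendritic cells and plasma cells were not. Ptprc, which encodes the leukocyte antigen CD45, was listed at 0 there. The 8 neutrophil markers summed to 0.890 per 10000 in cluster 4 against 1257 in cluster 5, which is 0.0708% of the level, with Csf3r and Mmp9 at 0. The members varied widely by the same measure. In cluster 4 Isg15 stood at 43.0%, Gbp2 at 87.1% and Rtp4 at 78.5% of the level of cluster 5, and Ifit1 at 320%. Ifitm1, Ifitm2, Ifitm3 and Ifi27l2a stood at 0.00543%, 0.665%, 2.71% and 4.77%. The part of neutrophil RNA in these levels was not tested.

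The 9 macrophage and dendritic cell markers summed to 0.0618 in cluster 4 against 101.8 in cluster 10, with Lyz2, Adgre1, Itgax and Flt3 at 0. Of the 6 T and NK cell markers measured, Cd3e, Cd3d, Cd3g and Nkg7 were at 0 in cluster 4. The 4 plasmacytoid dendritic cell markers measured summed to 3.62 in cluster 4, 0.313 in cluster 5 and 3.90 in cluster 10. Ly6d made up 2.40 of the sum in cluster 4 and was at 0 in cluster 10, Bst2 is itself a member, and Ccr9 was at 0 in cluster 4. The 4 B and plasma cell markers summed to 0.372 in cluster 4, above clusters 5 and 10, at 0.0755 and 0.106, and below cluster 6, at 17.0, with Cd79a and Cd79b at 0 in cluster 4. The part of these 2 lists in the interferon gene levels was not tested.

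The 6 epithelial markers, among them Epcam and Krt8, summed to 234.8 there, the highest of the 12 clusters. The label of colon epithelium therefore held for cluster 4 by these markers, but not for clusters 5 and 10, where they summed to 31.2 and 17.3. Measures of RNA quality set cluster 4 toward the high end. Mitochondrial transcripts took 6.55% of its UMIs, below clusters 6 and 1, at 8.05% and 6.88%, and above the others, at 0.923% to 6.19%. The nuclear RNA Malat1 took 4.76%, below cluster 6 at 4.85% and above the others, at 0.945% to 3.79%. Their part in the interferon gene levels was not tested.

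The upstream sequences of the members show the element through which STAT and IRF proteins act. RefSeq promoters (build GRCm38.p6, from 250 bases before to 50 bases after a start) were at hand for 51 of the 71 members. The core of the interferon-stimulated response element (GAAA, any 2 bases, GAAA), searched on both strands, was present in 27 of these 51 genes (52.9%), against 3.99% of the 27025 genes in the same table. The STAT site core TTCNNNGAA was present in 16 of 51 (31.4%), against 9.55%, and the 2 motifs overlapped in 2 member promoters.

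Upstream stretches are printed for the genes the results lean on, with cores of the response element in capitals. Isg15 lies on the minus strand and the stretch is chr4:156200819-156201068, Gbp2 on the plus strand at chr3:142620413-142620662, and Irf7 on the minus strand at chr7:141266500-141266674.
Isg15: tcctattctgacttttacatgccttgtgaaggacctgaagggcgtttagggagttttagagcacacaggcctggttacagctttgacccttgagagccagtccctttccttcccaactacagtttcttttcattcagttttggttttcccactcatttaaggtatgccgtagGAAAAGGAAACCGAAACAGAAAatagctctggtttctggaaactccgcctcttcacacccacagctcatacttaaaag
Gbp2: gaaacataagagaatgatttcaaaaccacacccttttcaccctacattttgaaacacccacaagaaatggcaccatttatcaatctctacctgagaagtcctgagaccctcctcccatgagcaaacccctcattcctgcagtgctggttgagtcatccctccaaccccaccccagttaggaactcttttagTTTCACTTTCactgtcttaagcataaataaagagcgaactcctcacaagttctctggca
Irf7: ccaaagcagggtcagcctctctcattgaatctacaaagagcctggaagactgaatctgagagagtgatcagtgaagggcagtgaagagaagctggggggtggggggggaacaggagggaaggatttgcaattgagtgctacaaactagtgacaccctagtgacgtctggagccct
Isg15 carries 3 overlapping cores and Gbp2 carries 1, while the letters of the core were not found in the Irf7 window.

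Windows of 20 bases around the core, read 5′ to 3′ on the strand of the gene, are shown for further members high in cluster 4. Only members with a match could be shown, so the likeness of the capital letters was set by the search.
Ifit1, chr19:34640780-34640799: ttcagTTTCACTTTCcagtc
Ifit1, chr19:34640799-34640818: ctcagTTTCAGTTTCtcact
Ifit3, chr19:34583402-34583421: gtctgTTTCAGTTTCtactt
Ifit3b, chr19:34607798-34607817: gtctgTTTCAGTTTCtactt
Ifit1bl1, chr19:34602058-34602077: gtaggTTTCATTTTCtgtag
Oas3, chr5:120777720-120777739: gaggaGAAAACGAAAgtgaa
Gbp3, chr3:142559994-142560013: cacagTTTCAGTTTCtattt
Stat2, chr10:128270271-128270290: cctggTTTCAGTTTCctttc
Igtp, chr11:58199517-58199536: gaactGAAACTGAAAgctgt
Irgm2, chr11:58214908-58214927: gaactGAAACTGAAAgctgt
The windows of Ifit3 and Ifit3b are identical, as are those of Igtp and Irgm2. Ifit3 and Ifit3b are close copies whose reads the counting could have divided between them. The plus-strand start of Ifit1 and a minus-strand start of Ifit1bl2 lie 146 bases apart and share both cores.

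The motif did not separate the members that were high in cluster 4 from the rest. It was present in 13 of the 21 members with a promoter that were at least 2-fold higher there (61.9%) and in 14 of the 30 others (46.7%). The members high in cluster 4 without a match were Irf7, Oasl1, Oasl2, Xaf1, Ifi35, Ifi44, Ifi47 and Ifit2. Among the other genes at least 2-fold higher in cluster 4, the motif was present in 17 of 383 (4.44%). By role, 7 of 8 GTPases and 5 of 6 IFIT genes held it, and 0 of 4 receptors. A match describes the letters and is not evidence of binding.

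Ifitm2 and Ifitm3, which were low in cluster 4, also carry the core, as these windows on the minus strand show.
Ifitm2, chr7:140955993-140956012: aacagGAAAAGGAAAttgct
Ifitm3, chr7:141010728-141010747: ttcagGAAAAGGAAActtct

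The receptor genes fell short of the 2-fold threshold in cluster 4. Ifngr1, the ligand-binding chain of the type II interferon receptor, was at 6.30 per 10000 (5.79 to 6.84) in cluster 8, 3.41 (3.14 to 3.71) in cluster 4, 2.09 in cluster 1, then 1.92 in cluster 3. It lay between 0.492 and 1.65 in the other 8 clusters. Cluster 8, in which the absorptive markers were highest, thus stood above cluster 4, with intervals apart.

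Ifngr2, the signalling chain of that receptor, was highest in cluster 4, at 2.34 (2.11 to 2.59), followed by cluster 1 at 1.94 (1.78 to 2.10) and cluster 8 at 1.85 (1.58 to 2.15). The first 2 intervals were separated by a narrow gap. The type I receptor chains were low in the epithelium. Ifnar1 lay between 0.0644 and 0.482 and Ifnar2 between 0 and 0.531 over the 12 clusters, and Ifnar2 was highest in clusters 5 and 10, at 0.531 and 0.477.

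Transcription factors of the pathway were divided between the epithelium and clusters 5 and 10. In cluster 4, 4 of 10 were at least 2-fold higher, among them Irf7 and Stat2, and 2 were at least 2-fold lower (Irf5 and Irf8, at log2 folds of -1.63 and -1.03). Both lower calls rested on clusters 5 and 10, since the log2 folds were -0.10 and -0.51 without these clusters among the others. Irf7, the factor that amplifies type I interferon production, had the largest fold among the 10, a log2 fold of 2.55 over the other clusters.

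Over all clusters Irf7 was at 7.09 (6.69 to 7.50) in cluster 4, 2.08 (1.92 to 2.25) in cluster 1, 1.85 in cluster 8, 1.79 in cluster 10, 1.62 in cluster 9, 1.33 in cluster 5, then 1.15 in cluster 6. It was at 0.676 in cluster 0, 0.546 in cluster 2, 0.466 in cluster 7, 0.444 in cluster 3, then 0.425 in cluster 11. Cluster 4 was 3.29-fold above the next cluster, with intervals far apart. The intervals of clusters 1, 8 and 10 overlapped, so their order is not settled by counting error alone.

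Stat2, which acts in the type I and type III response, was at 0.487 (0.387 to 0.606) in cluster 4 and 0.441 (0.271 to 0.678) in the shallow cluster 6. Irf1, a factor induced early by type II interferon, followed another order: it was at 3.74 (3.13 to 4.44) in cluster 5, 1.65 (1.40 to 1.94) in cluster 8 and 1.60 (1.41 to 1.80) in cluster 4, and at or below 0.960 elsewhere.

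Irf5 and Irf8, known for their roles in myeloid cells, were highest in cluster 10, at 1.72 (1.21 to 2.37) and 4.27 (3.44 to 5.24). Irf5 was listed at 0 in cluster 4, which allows up to 3 UMIs, or 0.0181 per 10000 at that depth. Irf8 was at 0.379 there and lay between 0.161 and 0.828 in the clusters other than 10.

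Sensors of viral nucleic acid fell into 2 sets. The cytosolic RNA sensors Ifih1 (MDA5), Ddx58 (RIG-I) and Dhx58 (LGP2) and the Z-form nucleic acid sensor Zbp1 were each highest in cluster 4. The Ifi203, Ifi204 and Ifi205 genes, which lie side by side on chromosome 1 and belong to a family of nuclear DNA sensors, were each highest in cluster 10.

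Zbp1 was at 1.63 (1.45 to 1.84) in cluster 4, 0.935 (0.572 to 1.44) in cluster 10, 0.593 in cluster 5, 0.489 in cluster 8, then 0.480 in cluster 1, and between 0.0703 and 0.293 in the others. Ifih1 was at 0.606 (0.493 to 0.736) in cluster 4 and 0.570 (0.425 to 0.749) in cluster 8, which overlapped. Ifi205 was at 1.44 (0.975 to 2.04) in cluster 10 and listed at 0 in all 11 others, the sharpest restriction among the sensors.

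Genes of the 2′-5′ oligoadenylate synthetase family, some of which encode enzymes that detect double-stranded RNA and activate RNase L, were most often highest in cluster 4. Of 8 members, 4 were at least 2-fold higher there (Oasl1, Oasl2, Oas2 and Oas3) and none was at least 2-fold lower, against 3.26% and 7.29% of all genes. Another count, of members highest there, gave 5, against 7.01% of all genes. Of these 5, only Oasl1 had an interval apart from that of the next cluster. Oasl1 was at 1.50 (1.32 to 1.70) in cluster 4, 0.637 (0.401 to 0.960) in cluster 5, 0.356 in cluster 8, then 0.328 in cluster 1, with the others between 0 and 0.221.

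Oasl2 was at 1.59 (1.41 to 1.79) in cluster 4 and 1.39 (1.03 to 1.83) in cluster 5. Oas3 was at 0.594 (0.483 to 0.724) in cluster 4 and 0.641 (0.404 to 0.965) in cluster 5, and at or below 0.111 in the other 10. For these 2 genes clusters 4 and 5 overlapped. Oas1a was at 0.332 (0.224 to 0.475) in cluster 8 and 0.290 (0.214 to 0.384) in cluster 4, which overlapped. Its level is uncertain, since Oas1a and Oas1g are close copies.

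The IFIT genes, which encode proteins that bind viral RNA lacking the host's cap methylation, gave the largest folds in cluster 4. All 6 lie within 112.4 kb of chromosome 19 (chr19:34550550-34662981, RefSeq), and 5 of them were at least 2-fold higher in cluster 4. In RefSeq the span of Ifit1bl1 runs over Ifit3b, Ifit1bl2 and Ifit1, and whether the counting used strand is not given in the sources used here, so the split of reads among these genes is uncertain.

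Ifit1bl1 was at 6.54 (6.15 to 6.94) in cluster 4, 2.23 (1.93 to 2.56) in cluster 8, 0.678 in cluster 1, 0.677 in cluster 9, 0.415 in cluster 6, then 0.203 in cluster 7. In the other 6 clusters it lay between 0.0213 and 0.120. Its log2 fold of 3.66 in cluster 4 was the largest of the 71 members, and it was low in clusters 5 and 10, at 0.115 and 0.0213, the latter from 1 cell.

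Ifit1 was at 1.54 (1.36 to 1.74) in cluster 4, 0.482 (0.281 to 0.772) in cluster 5, 0.246 (0.193 to 0.309) in cluster 1 and 0.122 in cluster 8, and between 0 and 0.0432 in the other 8. Cluster 4 thus stood 8.55-fold above the mean of the others. Ifit2 was at 0.397 (0.307 to 0.505) in cluster 4 and 0.116 (0.0803 to 0.161) in cluster 1, and at or below 0.0474 elsewhere. Ifit3 was at 0.547 (0.440 to 0.672) in cluster 4 and 0.552 (0.335 to 0.858) in cluster 5, and Ifit3b at 0.506 (0.404 to 0.626) and 0.236 (0.104 to 0.459). For both copies the intervals of these 2 clusters overlapped.

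**Figure D2:**
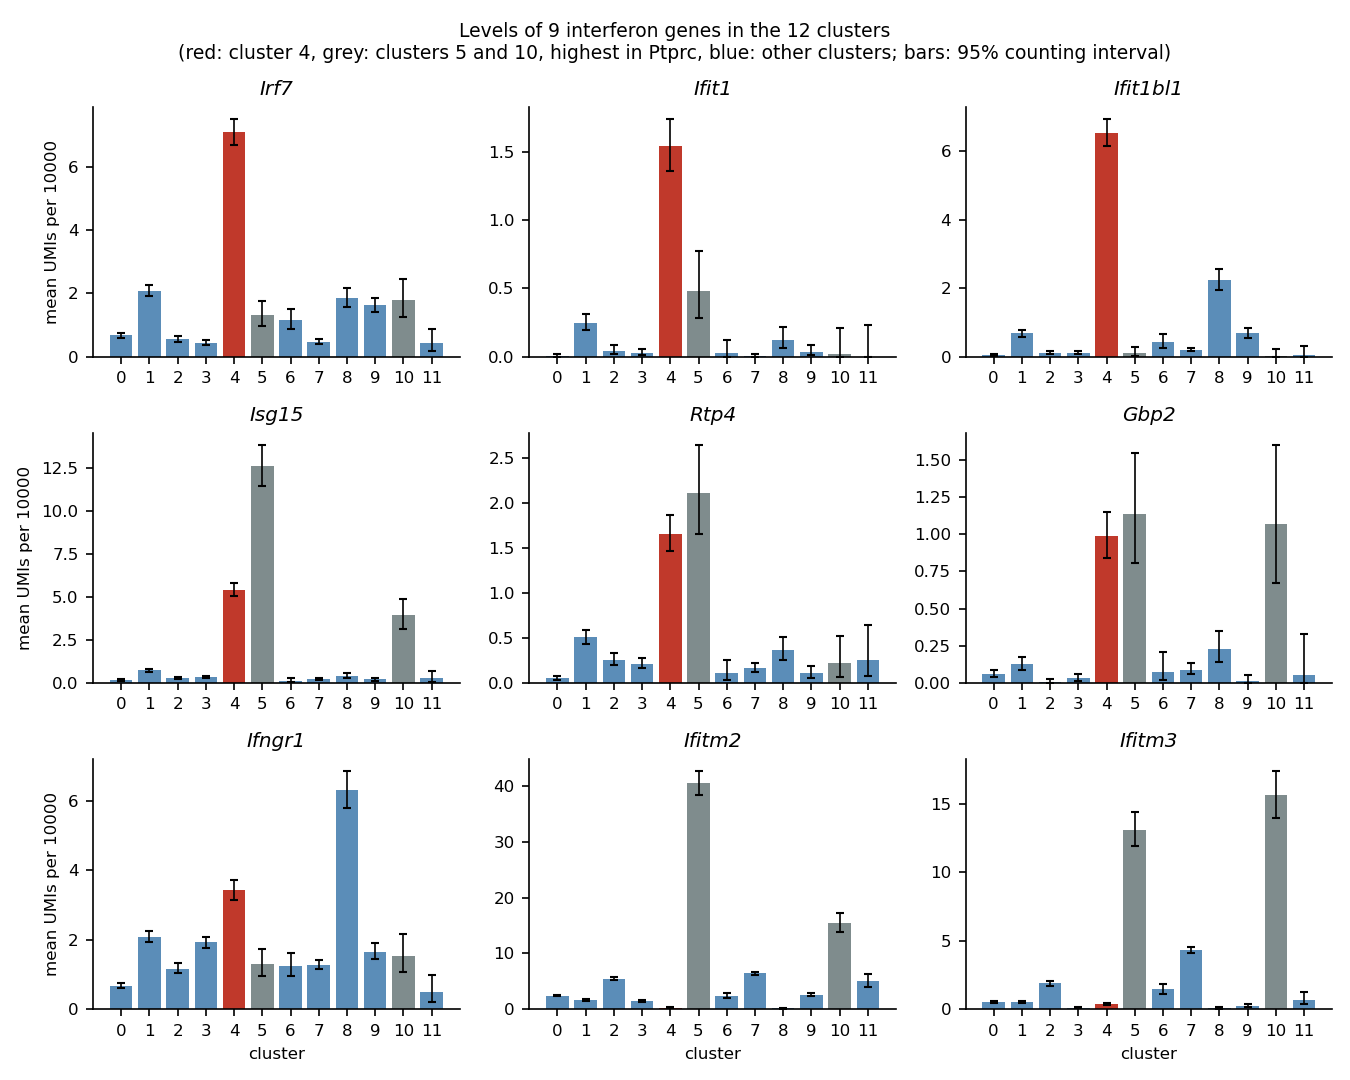
Mean UMIs per 10000 of 9 interferon genes in the 12 clusters, with 95% counting intervals as error bars; red marks cluster 4 and grey marks clusters 5 and 10. Irf7, Ifit1 and Ifit1bl1 peak in cluster 4, Isg15, Rtp4 and Gbp2 are high in cluster 4 and in cluster 5 or 10, and Ifngr1, Ifitm2 and Ifitm3 are highest elsewhere.

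The IFITM genes ran the opposite way. They encode small membrane proteins that hinder the entry of enveloped viruses, and 0 of 6 were at least 2-fold higher in cluster 4, while 4 were at least 2-fold lower (Ifitm1, Ifitm2, Ifitm3 and Ifitm6). The call of Ifitm6 ended without clusters 5 and 10 among the others, at a log2 fold of -0.14. Those of Ifitm3 and Ifitm6 ended against the median of the other clusters, at -0.80 and 0. A count of 4 low IFITM genes was not particular to cluster 4. By the same rule 4 of the 6 were low in clusters 0, 1, 6, 8 and 9 too. In clusters 3 and 11 the count was 3, and in clusters 2 and 7 it was 2. No epithelial cluster had an IFITM gene past 2-fold upward. Their summed level was 84.0 per 10000 in cluster 5, 58.5 in cluster 10, 0.627 in cluster 4, then 0.313 in cluster 8, the last 2 being the lowest of the 12. With these 6 genes set aside, 31 of 65 members were at least 2-fold higher in cluster 4 and the median log2 fold there was 0.94.

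Ifitm1 was at 28.9 (27.2 to 30.7) in cluster 5 and 27.0 (24.8 to 29.3) in cluster 10. In cluster 4 it was at 0.00157, an average that came from 1 of its 324 cells. It was at 1.08 (0.946 to 1.23) in cluster 2, the highest epithelial value. That value is 3.74% of the level of cluster 5, and S100a8, the neutrophil marker, stood at 3.80% of its own level of cluster 5 in the same cluster 2. Its part in the Ifitm1 level of cluster 2 was not tested.

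Ifitm2 was at 40.6 (38.5 to 42.7) in cluster 5 and 15.5 (13.9 to 17.2) in cluster 10. Among the epithelial clusters it was at 6.40 (6.11 to 6.71) in cluster 7, 5.46 in cluster 2, 5.04 in cluster 11, 2.58 in cluster 9, 2.44 in cluster 0, 2.35 in cluster 6, 1.59 in cluster 1, 1.49 in cluster 3, 0.270 in cluster 4, then 0.159 in cluster 8. Cluster 7, in which the cycling markers were highest, thus stood at the top and clusters 4 and 8 at the bottom. In cluster 7 Ifitm2 was at 15.8% of the level of cluster 5 and S100a8 at 0.155%.

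Ifitm3 was at 15.6 (14.0 to 17.3) in cluster 10 and 13.1 (11.9 to 14.4) in cluster 5. In the epithelium it was at 4.30 (4.06 to 4.55) in cluster 7 and 1.88 (1.70 to 2.08) in cluster 2, then at 1.43 in cluster 6, 0.693 in cluster 11, 0.524 in cluster 1, 0.510 in cluster 0, then 0.355 in cluster 4. Below cluster 4 came cluster 9, at 0.243, cluster 3, at 0.0872, and cluster 8, at 0.0487. Ifitm2 and Ifitm3 thus shared clusters 7 and 2 at the top of the epithelium and cluster 8 at its bottom, while cluster 4 was next to lowest for Ifitm2 only. Ifitm6 was at 1.29 (0.942 to 1.72) in cluster 5, with 0 listed for cluster 4.

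Irf7 and 5 IFITM genes share a stretch of 317.5 kb on chromosome 7 (chr7:140948958-141266499, RefSeq). Irf7 was highest of the 12 clusters in cluster 4, and Ifitm1, Ifitm2, Ifitm3 and Ifitm6 of the same stretch were at least 2-fold lower there. In the OAS stretch of 6 genes on chromosome 5 (chr5:120730333-120907544), 3 were highest in cluster 4, against 7.01% of all genes. All 3 (Oas2, Oas1b and Oas1g) had intervals that overlapped those of the next cluster.

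**Figure D3:**
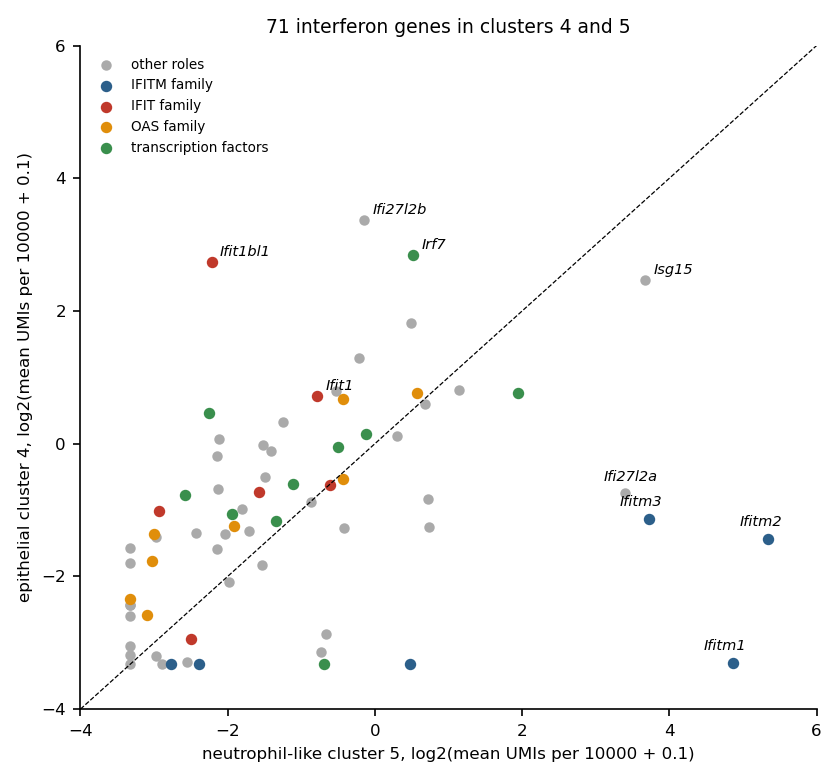
Level of the 71 interferon genes in the neutrophil-like cluster 5 (horizontal) against the epithelial cluster 4 (vertical), both as log2 of mean UMIs per 10000 plus 0.1; the dashed line marks equal levels. Ifit1bl1, Irf7 and Ifi27l2b lie above the line, and Ifitm1, Ifitm2, Ifitm3 and Ifi27l2a lie far below it.

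Interferon-inducible GTPases, some of which attack the membranes around intracellular microbes, were moderately higher in cluster 4. Of 14 members, 5 were at least 2-fold higher there (Gbp2, Gbp3, Igtp, Irgm2 and Ifi47) and none was at least 2-fold lower, against 3.26% and 7.29% of all genes. Gbp2 was at 0.988 (0.843 to 1.15) in cluster 4, 1.13 (0.810 to 1.54) in cluster 5 and 1.07 (0.675 to 1.60) in cluster 10, which overlapped. In the remaining 9 clusters it lay between 0.0041 and 0.229.

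Ifi47 was at 0.646 (0.409 to 0.971) in cluster 5 and 0.314 (0.235 to 0.412) in cluster 4. Igtp was at 0.303 (0.225 to 0.399) in cluster 4 and 0.206 (0.0845 to 0.419) in cluster 5. Irgm1, a regulator of the other immunity-related GTPases, was at 0.446 (0.351 to 0.560) in cluster 4 and 0.448 (0.255 to 0.729) in cluster 5, and at or below 0.249 elsewhere. For Gbp2, Ifi47, Igtp and Irgm1 the intervals of clusters 4 and 5 overlapped. Those of the shallow cluster 5 were wide, so the overlap does not show that the levels were equal.

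Both genes of the ISG15 system were at least 2-fold higher in cluster 4. Isg15 encodes a ubiquitin-like protein that is joined to other proteins, and Usp18 encodes the protease that removes it and dampens receptor signalling. Isg15 was at 12.6 (11.5 to 13.9) in cluster 5, 5.43 (5.09 to 5.80) in cluster 4, 3.96 (3.16 to 4.89) in cluster 10 and 0.724 (0.631 to 0.828) in cluster 1. In the other 8 clusters it lay between 0.127 and 0.415.

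Isg15 thus separated clusters 4, 5 and 10 from the rest, and within the epithelium cluster 4 was 6.71-fold above cluster 1, the next. Usp18 was at 0.407 (0.316 to 0.516) in cluster 4 and 0.423 (0.167 to 0.880) in cluster 11, whose 19 cells carried the enteroendocrine markers. It was at or below 0.186 in the other 10.

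Of the 14 other effectors, 7 were at least 2-fold higher in cluster 4 (Ifi44, Xaf1, Ifi35, Ifi27l2b, Rtp4, Parp14 and Parp9) and 2 were at least 2-fold lower (Ifi30 and Ifi27l2a). Neither lower call held without clusters 5 and 10 among the others. Rtp4, a chaperone of taste and opioid receptors that is also interferon-induced, was at 2.11 (1.66 to 2.65) in cluster 5, 1.66 (1.47 to 1.87) in cluster 4 and 0.507 (0.429 to 0.594) in cluster 1. Xaf1, a promoter of cell death, was at 0.952 (0.809 to 1.11) in cluster 4 and 0.400 (0.179 to 0.770) in cluster 10. Parp14, an ADP-ribosyltransferase, was at 0.827 (0.695 to 0.978) in cluster 4 and 0.277 (0.131 to 0.513) in cluster 5. Xaf1 and Parp14 had intervals in cluster 4 apart from every other cluster.

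Ifi27l2a and Ifi27l2b, neighbours on chromosome 12, differed in clusters 5 and 10. Ifi27l2b was at 10.3 (9.78 to 10.8) in cluster 4, 7.81 (7.50 to 8.14) in cluster 1, 4.67 in cluster 2, then 3.61 in cluster 3. It was lowest in clusters 5 and 10, at 0.800 and 0.611. Ifi27l2a was at 10.4 (9.36 to 11.5) in cluster 5 and 6.97 (5.90 to 8.18) in cluster 10, and at or below 0.668 in every epithelial cluster. Within the epithelium it was highest in clusters 2, 1 and 4, at 0.668, 0.537 and 0.495, which are also the first 3 for Ifi27l2b. Its log2 fold in cluster 4 turned from -1.65 to 0.84 without clusters 5 and 10 among the others. Its RefSeq span overlaps that of Ifi27, so reads could be divided between the 2 genes.

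Ifi30, a lysosomal thiol reductase of antigen processing, was at 9.65 (8.38 to 11.1) in cluster 10 and 0.884 (0.747 to 1.04) in cluster 4. Bst2, which tethers budding virus to the cell, was at 3.52 (2.78 to 4.41) in cluster 10, 0.776 (0.648 to 0.922) in cluster 4 and 0.698 (0.623 to 0.778) in cluster 0. Both genes were led by cluster 10.

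**Figure D4:**
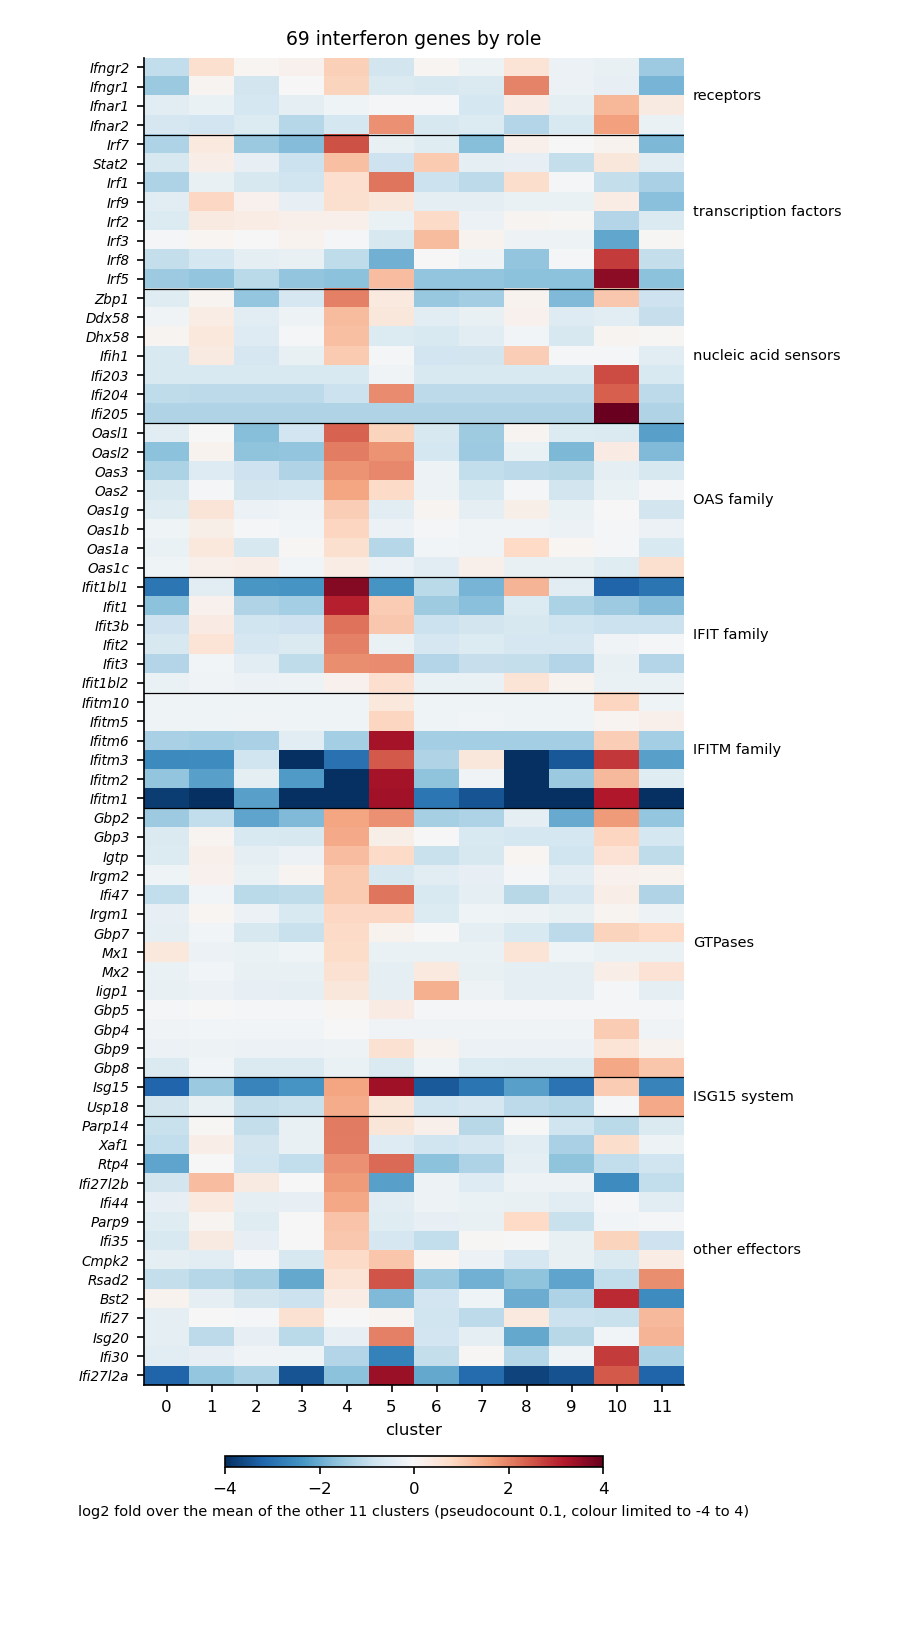
Log2 fold of each of 69 of the 71 interferon genes over the mean of the other 11 clusters (pseudocount 0.1 per 10000), by role and in each role ordered by cluster 4; red is higher and blue lower, and colours stop at -4 and 4. Most IFIT and OAS rows are red in cluster 4, and the rows of Ifitm1, Ifitm2 and Ifitm3 are blue there and red in clusters 5 and 10.

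With clusters 5 and 10 set aside, 41 of the 71 members (57.7%) had their highest level in cluster 4, against 8.67% of all genes. For 26 of them the counting interval lay apart from that of the next epithelial cluster. Cluster 1 was second for 23 of the 41 (56.1%), where it was second for 22.1% of all genes highest in cluster 4. Cluster 8 was second for 8 of the 41 (19.5%), against 28.5%. Irf7, Isg15 and Ifit1 each had cluster 1 second, while Ifit1bl1, Oasl1, Zbp1 and Gbp2 had cluster 8 second.

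Set directly against cluster 1, cluster 4 had 22 members at least 2-fold higher, where 2.12% of all genes were, and 1 at least 2-fold lower, Ifitm2, where 2.38% were. The median log2 ratio was 0.66, against -0.01 over all genes. Ifit1bl1 was 8.53-fold, Isg15 6.71-fold and Ifit1 4.74-fold above cluster 1, whereas Ifi27l2b was only 1.31-fold above it.

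Against cluster 8 the count was 33 higher, where 2.98% of all genes were, and 1 lower, Ifitm1, where 1.57% were, with a median log2 ratio of 0.92. Here Isg15 was 10.7-fold and Ifit1 7.40-fold above cluster 8, while Ifit1bl1 was 2.85-fold above it. Against cluster 9 it was 39 higher, where 4.52% of all genes were, and 1 lower, Ifitm2, where 5.45% were, with a median of 1.06. These comparisons share cluster 4, so they are not independent of each other.

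Lists of receptor partners, inhibitors and adaptors of the pathway were short and held few genes past 2-fold in cluster 4. The 9 interferon ligand genes looked up were not analysed here. Of 5 receptor partners and kinases, 0 reached 2-fold in cluster 4, against 3.26% of all genes, which for a list this short is near that share. In cluster 5, 3 of them did (Il10rb, Jak1 and Jak2), against 5.13% of all genes. Ifnlr1, the specific chain of the type III receptor, was low throughout. It was at 0.0888 (0.0494 to 0.147) in cluster 4, 0.0533 in cluster 11, 0.0380 in cluster 9, 0.0368 in cluster 8 and 0.0360 in cluster 3. It was listed at 0 in clusters 5, 6 and 10. Clusters 5 and 6 were shallow and cluster 10 had 31 cells, so a 0 there does not show absence.

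Of 5 inhibitors of the pathway, 0 were at least 2-fold higher in cluster 4 and 2 were at least 2-fold lower, Socs3 and Ptpn6. Over all genes the shares were 3.26% and 7.29%. Socs3, which blocks JAK signalling, was at 4.30 in cluster 5, 3.64 in cluster 10, but 0.110 in cluster 4, where Ptpn6 was at 0.179. Neither stood apart from the epithelium. There Socs3 ran from 0 in cluster 8 to 0.375 in cluster 11, and Ptpn6 from 0.130 in cluster 1 to 0.325 in cluster 6. Of 12 sensor and adaptor genes, 1 was at least 2-fold higher in cluster 4, against 3.26% of all genes, which for a list this short is near that share. It was Trim25, the ubiquitin ligase that activates RIG-I, at 1.31 in cluster 4 and 0.992 in cluster 8.

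A list of 43 further interferon targets had 40 measured genes. Of these, 12 were at least 2-fold higher in cluster 4, against 3.26% of all genes. Another 5 were at least 2-fold lower, against 7.29%. Among the 12 were Ly6a, the surface protein also called Sca-1, Ddx60, a helper of RIG-I, and Apol9a. Ly6a was at 27.3 in cluster 4, 10.7 in cluster 1, then 9.56 in cluster 8. Among the 5 lower was Slfn2, a regulator of immune cell quiescence, at 11.9 in cluster 5 and 0.520 in cluster 4. The chemokine Cxcl10 was another, at 2.31 in cluster 5 and 0.0864 in cluster 4. Within the epithelium, though, Slfn2 was highest in cluster 4, with cluster 0 next at 0.333. Only cluster 11, at 0.364, exceeded cluster 4 there for Cxcl10.

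Low levels limit what can be read from many members. Of the 852 values of 71 genes in 12 clusters, 131 were listed at 0, 68 came from 1 cell and 46 from 2 cells. In clusters 10 and 11, 58 values came from 1 to 4 cells. Of the 28 members highest in cluster 4, 13 had an interval apart from the next of all 12 clusters.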

How the data were processed

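Single-cell RNA libraries (2, 1 group) were processed with Cell Ranger 3.1.0 and Seurat 2.3 on build mm10 (GRCm38), per the submitters' processing notes. No source used here gives the annotation, filters, doublet treatment or clustering. The values that the authors deposited are means of UMIs per 10000 over a cluster's cells on a linear scale, as read from the values.

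Cell numbers and UMI totals were recovered where 10000 divided by an average was whole within a relative tolerance of 1e-12 and at least 2 genes gave a total. They gave approximate UMI numbers, exact Poisson 95% intervals and the allowance of 3 UMIs for a 0. Totals were identified for 75.1% of cells. Deeper cells are more easily identified, so the intervals are approximate.

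Folds used a pseudocount of 0.1 per 10000 and a threshold of 2-fold (alternatives: pseudocounts 1 and 0.01, 4-fold, a mean filter of 0.1, left-out clusters, the median of the others). No test was run, since the averages carry no replicate. On simulated data the cell number was recovered in 12 of 12 clusters. For the threshold, all simulated clusters shared 1 profile and differed only in depth, counting error and the genes raised in cluster 4. There the threshold called 0 of 50 genes raised 2-fold, 47 of 50 raised 4-fold and 0 of 16844 unraised. Real clusters also differ in profile and from cell to cell, so the last count is not a rate of false calls for them.

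Gene positions, for 71 of 71 members, and promoters are RefSeq's (GRCm38.p6). Members named were Irf7, Isg15, Ifit1, the 4 highest of each role, the 15 with the largest fold in cluster 4, the 3 highest of each pathway list and the 8 genes most like each of Irf7, Isg15 and Ifit1. Other names were picked with their values in view. Of the members, 2 enter the counts but are not reported individually here. The members and lists were chosen with earlier results of these data known. Python 3.11.15, numpy 2.4.6, pandas 2.3.3, scipy 1.17.1 and matplotlib 3.10.9 were used.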

Additional observations from a re-analysis of the deposited data

How the results depend on the processing

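A pseudocount of 1 per 10000 lowered the members at least 2-fold higher in clusters 4, 5 and 10 to 6, 9 and 9, their medians to 0.19, 0.054 and 0.021, and the members higher in cluster 4 than in cluster 1, 8 and 9 to 4, 5 and 9. The share of all genes at least 2-fold higher in cluster 4 was then 0.78%. At 4-fold the counts were 10, 11 and 10, with no share of all genes to set beside them. A pseudocount of 0.01 gave a median of 0.50 in cluster 5 and 35 members above cluster 1. Against the median of the other clusters, the medians of clusters 5 and 10 were 0.55 and 0.43. Among genes with a mean of at least 0.1, 15 members were highest in cluster 4, 15 in cluster 5 and 9 in cluster 10, whose median was 0.20. Of all genes at that mean, 8.61%, 8.04% and 7.68% were highest in these 3 clusters. Without clusters 5 and 10 among the others, 30 of the 31 members kept their 2-fold call in cluster 4, but only 3 of the 9 lower members did (Ifitm1, Ifitm2 and Ifitm3), and 2 of 9 against the median of the others (Ifitm1 and Ifitm2). The log2 fold of Ifi27l2a in cluster 4 turned from -1.65 to 0.84 without clusters 5 and 10, and to 1.42 against the median of the others. The cause was not tested. The alternatives for clusters 1, 8 and 9 were chosen after seeing the data. No paired analysis was possible because the columns do not separate the libraries, and leaving out a library was not run for the same reason. Levels near 1 UMI per cluster are limited by depth.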

Other observations

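Genes of antigen presentation by MHC class I, which interferons are known to raise, were high in cluster 4 as well as in cluster 10. Of 10 such genes, 3 were at least 2-fold higher in cluster 4 (Psmb8, Tap1 and H2-K1), against 3.26% of all genes. None was at least 2-fold lower, which for 10 genes is near the 7.29% of all genes. Another 3 were highest in cluster 4 (Psmb10, Tapbp and H2-T23), against 7.01% of all genes, and 5 in cluster 10, against 8.84%. Their median log2 fold in cluster 4 was 0.89. B2m, the light chain of MHC class I, was at 39.6 in cluster 10 and 23.1 in cluster 5, with cluster 4 next in order. H2-K1, a heavy chain, was at 16.4 in cluster 8 against 14.8 in cluster 4. H2-D1, another, was at 30.2 in cluster 5 against 21.0 in cluster 4. The median over clusters was thus led by cluster 10, at 1.23, and then by cluster 4.

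The genes most like the 3 markers in pattern were ranked by Pearson's r of log2(level + 0.1) over the 12 clusters, among 8067 genes with a mean of at least 0.1 per 10000. The 12 points share the 2 libraries and differ in depth, and r is a description. Most like Irf7 were Rnf31 (0.87), Ppp1r12a, Apobec1, Ppm1j, Oasl1, Pdlim2, Itgb5 and Ddx60. Most like Isg15 were Trim30a (0.95), Gbp2, H2-D1, Smox, Ifi47, Cyb5r4, Irgm1 and Ifit3, and most like Ifit1 were Xdh (0.93), Abtb2, Ifit3, Rtp4, Parp14, Ptp4a1, Ddx60 and Upp1. The first 100 genes for Irf7 held 7 members, those for Isg15 10 and those for Ifit1 13, where 45 members made up 0.558% of the 8067 genes.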
